A study of Mus musculus with 31 samples.

Results

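10 neuropeptide genes were followed across 31 mouse brain libraries, 6 expressed mainly in small groups of hypothalamic neurons (Avp, Oxt, Pomc, Agrp, Hcrt and Pmch) and 4 expressed widely in interneurons and other neurons of the cortex (Npy, Sst, Vip and Cck). The 10 were given as a list of symbols and found by symbol among the 48795 genes of the deposited count table, and 10 of 10 passed the filter on low counts that left 19529 genes. Total RNA, extracted with a column kit from aliquots of homogenised tissue of a divided brain, was sequenced from 13 control libraries and 18 libraries of mice exposed to deltamethrin during development. Deltamethrin, an insecticide of the pyrethroid class, slows the closing of sodium channels, and the study asked what its developmental exposure does to gene transcription in the brain. The labels give the agent alone, with no strain, sex, age, dose, litter or time of collection, and do not say whether each library comes from a separate animal, so p-values measure the spread between these libraries.

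Neuropeptides are cut from larger precursor proteins in the secretory pathway, stored in dense-core vesicles and released to act on G protein-coupled receptors. The hypothalamic members are made by few cells: vasopressin (Avp) and oxytocin (Oxt) by magnocellular and parvocellular neurons of the paraventricular and supraoptic nuclei, Pomc and Agrp by arcuate neurons with opposite effects on feeding, and Hcrt (orexin) and Pmch (melanin-concentrating hormone) by neighbouring neurons of the lateral hypothalamus. Avp and Vip are also made in the suprachiasmatic nucleus, the circadian pacemaker. Npy, Sst and Vip mark classes of cortical GABAergic interneurons, and Cck is made both by interneurons and by many projection neurons. Npy is in addition made by the Agrp neurons.

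The genes of the vasopressin and oxytocin precursors lie next to each other, and their promoters are shown because their levels had the highest correlation among the hypothalamic genes, and those of Sst and Cck because these were the most abundant members. Each window holds the 250 bases before the RefSeq start on GRCm38.p6, and capitals mark matches on either strand to CACGTG (E-box), TGACGTCA (cAMP response element), TATAAA or TGACCT (nuclear receptor motif).
Avp, chr2:130582589-130582838, minus strand: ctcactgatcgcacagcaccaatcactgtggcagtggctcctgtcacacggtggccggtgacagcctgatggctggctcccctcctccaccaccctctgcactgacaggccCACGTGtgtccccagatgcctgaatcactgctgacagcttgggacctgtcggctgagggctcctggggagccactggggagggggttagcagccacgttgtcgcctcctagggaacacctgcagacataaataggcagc
Oxt, chr2:130575919-130576168, plus strand: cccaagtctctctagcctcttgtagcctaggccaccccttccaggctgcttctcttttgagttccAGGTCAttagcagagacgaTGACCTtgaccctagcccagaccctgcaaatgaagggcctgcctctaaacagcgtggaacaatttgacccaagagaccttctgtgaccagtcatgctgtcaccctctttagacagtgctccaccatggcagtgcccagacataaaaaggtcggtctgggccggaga
Sst, chr16:23890845-23891094, minus strand: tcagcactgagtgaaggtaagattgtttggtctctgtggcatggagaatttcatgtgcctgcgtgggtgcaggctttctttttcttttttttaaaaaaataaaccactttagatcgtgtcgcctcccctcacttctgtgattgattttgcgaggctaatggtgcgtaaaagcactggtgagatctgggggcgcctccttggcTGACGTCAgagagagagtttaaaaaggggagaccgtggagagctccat
Cck, chr9:121495695-121495944, minus strand: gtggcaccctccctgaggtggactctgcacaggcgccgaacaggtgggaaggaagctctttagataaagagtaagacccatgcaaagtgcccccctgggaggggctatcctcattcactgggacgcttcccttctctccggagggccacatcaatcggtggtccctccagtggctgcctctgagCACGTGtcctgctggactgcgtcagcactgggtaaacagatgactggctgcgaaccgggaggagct
The Avp window held 1 E-box, 139 bases before the start, and the Cck window held 1 at 66 bases. The Sst window held 1 full cAMP response element at 48 bases, and the Oxt window held 2 matches to TGACCT, at 185 and 166 bases. Among 32851 promoter windows of the same length, 6.02% held CACGTG, 1.55% TGACGTCA, 12.4% TATAAA and 14% TGACCT. A window was found for 9 of the 10 genes. Pomc, Hcrt and Pmch each held 1 TATAAA within the last 33 bases and Vip held 3 in its window. These matches describe letters and not binding.

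The total count ran from 17570311 to 35716869 in control (median 28846830) and from 24563143 to 38680621 in deltamethrin (median 30698475). The mitochondrial ribosomal RNAs took 7.32 to 40.2% of counts, with the highest share in control replicate 2, which also had the lowest total. None of the 465 pairs of libraries differed by as little as sampling noise (smallest chi-square per degree of freedom 6.42). Markers of cortical excitatory and GABAergic neurons were present in all libraries, with a summed level of 759 to 1460 CPM (the count scaled by library size) for 7 cortex markers and 538 to 832 CPM for 9 interneuron markers. The 9 hypothalamus markers summed to 2.01 to 7.31 CPM in control (median 3.86) and 3.58 to 11.6 CPM in deltamethrin (median 5.54), Six6 had a median count of 0, and only Nkx2-1, Otp, Irs4 and Asb4 passed the count filter.

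The level of the 10 genes, given as median CPM per kilobase of annotated exon over 31 libraries, fell into a high set and a low set. Sst (116 CPM per kilobase) and Cck (113) were highest, with Sst above Cck in 20 of 31 libraries and ranges that overlapped. Npy (42.3) was below Cck and above Pmch in 31 of 31. Pmch (4.6) and Vip (3.78) overlapped, with Pmch higher in 14 of 31, and Vip exceeded Hcrt (2.21) in 26 of 31. Hcrt, Pomc (2.02), Avp (1.91), Oxt (1.17) and Agrp (0.810) followed, and each neighbour in that order was the higher one in only 17 to 21 of 31 libraries. Vip has the longest exon model (3402 bases), which lowers its value per kilobase.

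**Figure D1:**
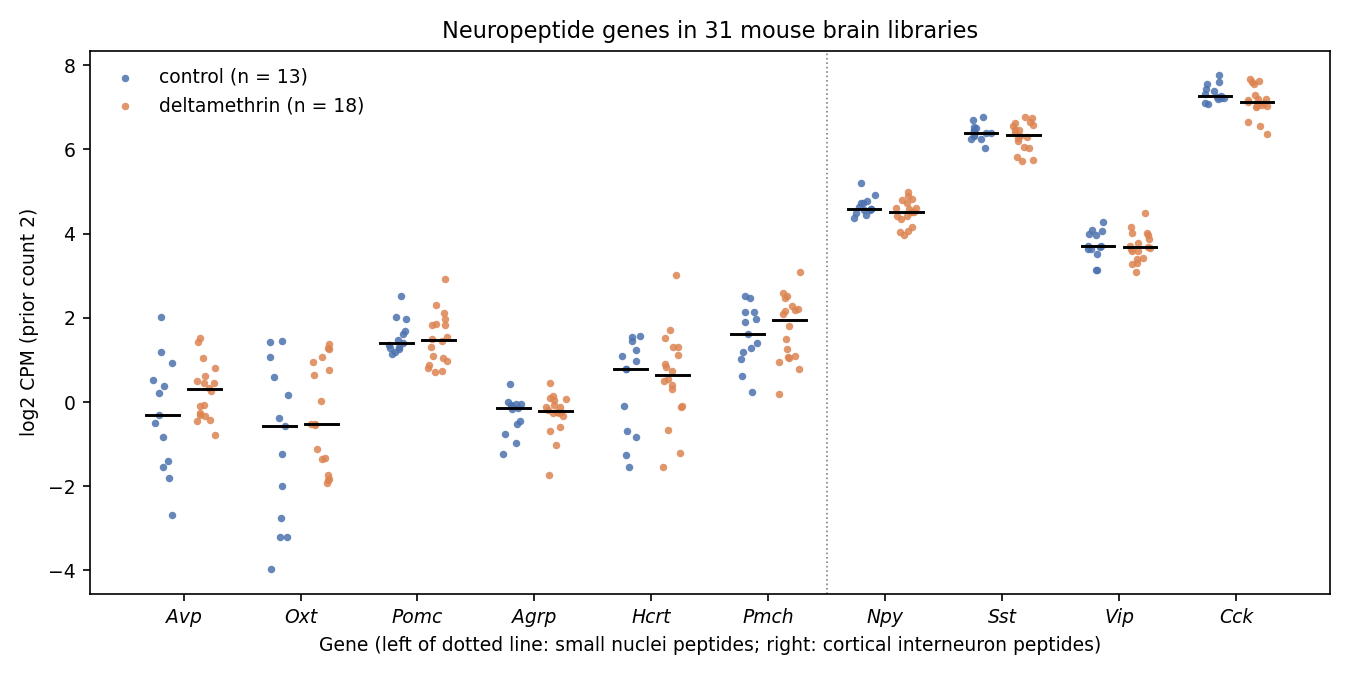
Level of each gene as log2 CPM (vertical axis) in the 13 control and 18 deltamethrin libraries, each point a library and each bar the group median. The 6 hypothalamic genes on the left spread over a wide range, Oxt most of all, while Npy, Sst, Vip and Cck lie in narrow bands and the groups overlap for all 10 genes.

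No member passed the test between the groups. At an adjusted p of 0.05 by the quasi-likelihood test of edgeR, 0 of the 10 genes and 0.00% of all 19529 genes were called. At an unadjusted p of 0.05, 0 of the 10 were called, beside 853 of all genes, or 4.37% (2% higher and 2.37% lower). DESeq2 and limma voom also called 0 of all genes after adjustment, with 1360 and 847 at an unadjusted p of 0.05. The median log2 fold change was 0.14 for the 6 hypothalamic genes (range 0.03 to 0.22) and -0.11 for the 4 cortical genes (range -0.18 to -0.03), beside 0.0014 for all genes tested. In bulk RNA, fewer cells of a type and less RNA per cell cannot be told apart.

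Vasopressin (Avp, ENSMUSG00000037727, protein coding, GRCm38 chromosome 2, 130580620 to 130582554, minus strand), the hormone of water balance and a peptide of the circadian pacemaker, had 0.0929 CPM in the lowest control library, a median of 0.739 and 3.99 in the highest. The deltamethrin libraries ran from 0.521 to 2.80 CPM with a median of 1.17. The groups overlapped, 14 of 18 deltamethrin libraries lay above the control median, and 5 of the 5 lowest libraries were controls. The mean ± SD was 1.12 ± 1.08 CPM over 13 control and 1.26 ± 0.656 CPM over 18 deltamethrin libraries, a log2 fold change of 0.12 ± 0.32 (SE, adjusted p = 0.934 by edgeR, 95% interval -0.54 to 0.78). The fold change was 0.45 without control replicate 6, the library with the highest Avp, 0.02 without deltamethrin replicate 15, 0.19 with the mitochondrial rRNA share as a covariate and 0.43 with limma voom (adjusted p = 0.821).

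Oxytocin (Oxt, ENSMUSG00000027301, protein coding, chromosome 2, 130576173 to 130577054, plus strand), the hormone of milk ejection and birth, has its end 3565 bases from the end of Avp. It had 0 counts in control replicate 1, which allows up to 0.12 CPM at 3 counts, a control median of 0.606 CPM and a control maximum of 2.65. The deltamethrin libraries ran from 0.198 to 2.53 CPM around a median of 0.631. Low and high libraries occurred in both groups, although 5 of the 5 lowest were controls. Its log2 fold change was 0.15 ± 0.47 (adjusted p = 0.942 by edgeR, 95% interval -0.81 to 1.11). Values within this interval cannot be told apart with these libraries. It was 0.40 without control replicate 4, 0.03 without deltamethrin replicate 15, 0.35 with the mitochondrial rRNA covariate and 0.75 with limma voom (adjusted p = 0.821), the farthest of its alternatives.

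Pomc (ENSMUSG00000020660, protein coding, chromosome 12, 3954951 to 3960642, plus strand), the precursor of the melanocortins and of beta-endorphin, is made by arcuate neurons and also by the pituitary. Control libraries had 2.13 to 5.67 CPM (median 2.56) and deltamethrin libraries 1.58 to 7.55 CPM (median 2.71). The highest value was in deltamethrin replicate 12, and control replicate 2 came next. That control library held 61 counts of Pomc, and its place depends on its scaling factor of 0.613, the smallest of all libraries. The log2 fold change was 0.03 ± 0.20 (adjusted p = 0.972 by edgeR, 95% interval -0.36 to 0.43).

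The pituitary hormone genes Gh (growth hormone) and Prl (prolactin) stood high in the same library. In deltamethrin replicate 12 Gh had 7.45 CPM and Prl 5.92 CPM beside 7.55 CPM of Pomc. In deltamethrin replicate 18 Gh had 3.81 and Prl 2.55 CPM beside 4.91 CPM of Pomc. In the other 29 libraries Gh was at most 1.25 CPM and Prl at most 1.08, while Pomc ran from 1.58 to 5.66. Of the 9 pituitary markers, Cga was at 0 in 24 of 31 libraries and Tbx19 in 23 of 31. Their summed level was 0.828 to 3.92 CPM in control and 1.26 to 15.4 in deltamethrin. Without both deltamethrin libraries, an alternative chosen after seeing the data, the log2 fold change of Pomc was -0.17 (adjusted p = 0.858 by edgeR), a change of direction. It was also negative without replicate 12 alone (-0.10), without replicate 18 alone (-0.02) and without deltamethrin replicate 8 (-0.0013), and with limma voom (-0.05). The part of pituitary RNA in the level of Pomc was not tested.

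Agrp (ENSMUSG00000005705, protein coding, chromosome 8, 105566698 to 105637393, minus strand) encodes the antagonist of the melanocortin receptors that opposes the products of Pomc. It had 8 to 44 counts per library. Its median count (25) and median CPM (0.82) were above those of Oxt (20 and 0.629). Its total count (756, beside 1059 for Oxt) and its level per kilobase of exon were the lowest of the members. Controls had 0.359 to 1.28 CPM (median 0.847) and deltamethrin libraries 0.238 to 1.31 CPM (median 0.802), and the groups overlapped over almost the whole range. Its log2 fold change was 0.05 ± 0.18 (adjusted p = 0.952 by edgeR, 95% interval -0.31 to 0.40). It was -0.01 without control replicate 1 and -0.0030 without deltamethrin replicate 4. The annotated gene is long and its exons overlap those of Ctcf and Gm5914, so its count is uncertain.

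Hcrt (ENSMUSG00000045471, protein coding, chromosome 11, 100761069 to 100762931, minus strand), the precursor of the orexins that keep the waking state, ranged from 0.279 to 2.90 CPM in control (median 1.67) and from 0.277 to 8.02 CPM in deltamethrin (median 1.49). One library, deltamethrin replicate 2, stood far above the others at 8.02 CPM (270 counts), and the next highest deltamethrin library had 3.19 CPM. The log2 fold change was 0.22 ± 0.36 (adjusted p = 0.894 by edgeR, 95% interval -0.50 to 0.95). Without deltamethrin replicate 2 it was -0.07, so its sign rests on that library, and with limma voom it was 0.09.

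Pmch (ENSMUSG00000035383, protein coding, chromosome 10, 88091072 to 88092375, plus strand), the precursor of melanin-concentrating hormone, which promotes feeding and sleep, had 1.12 to 5.63 CPM in control (median 2.99) and 1.07 to 8.47 CPM in deltamethrin (median 3.82). Its highest library was again deltamethrin replicate 2, at 8.47 CPM. The log2 fold change was 0.20 ± 0.25 (adjusted p = 0.858 by edgeR, 95% interval -0.30 to 0.70). It was 0.10 without that library and 0.13 with limma voom. An exon of Pmch overlaps Parpbp on the other strand, and whether counting used strand is not given in the sources used here.

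Among the cortical peptides, Cck (ENSMUSG00000032532, protein coding, chromosome 9, 121489824 to 121495694, minus strand), the precursor of cholecystokinin, had 135 to 216 CPM in control (median 155.0) and 83.1 to 203.0 CPM in deltamethrin (median 139). In all 13 of 18 deltamethrin libraries lay below the control median, and 3 of them, replicates 1, 2 and 3, were below 100 CPM, where no control was. Its log2 fold change was -0.18 ± 0.10 (unadjusted p = 0.102, adjusted p = 0.813 by edgeR, 95% interval -0.39 to 0.04). With the mean of 4 hypothalamus markers as a covariate it was -0.03.

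Npy (ENSMUSG00000029819, protein coding, chromosome 6, 49822710 to 49829507, plus strand), the feeding peptide that also marks cortical and hippocampal interneurons, had 20.7 to 36.6 CPM in control (median 24.0) and 15.5 to 31.9 in deltamethrin (median 22.6). The 3 lowest libraries were deltamethrin replicates 3, 1 and 2, with 15.5, 16.3 and 16.6 CPM. Its log2 fold change was -0.15 ± 0.09 (unadjusted p = 0.117, adjusted p = 0.813 by edgeR, 95% interval -0.34 to 0.04). It was -0.10 without control replicate 11 and -0.0079 with the hypothalamus marker covariate.

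Sst (ENSMUSG00000004366, protein coding, chromosome 16, 23889573 to 23890958, minus strand), the inhibitory peptide of dendrite-targeting interneurons, had 65.7 to 108.5 CPM in control (median 83.7) and 52.7 to 109.8 in deltamethrin (median 81.6). Deltamethrin replicates 3, 4 and 1 were the 3 lowest, with 52.7, 53.8 and 56.7 CPM. Its log2 fold change was -0.07 ± 0.10 (adjusted p = 0.867 by edgeR, 95% interval -0.27 to 0.12), -0.04 without deltamethrin replicate 3 and -0.04 without scaling factors. Vip (ENSMUSG00000019772, protein coding, chromosome 10, 5639218 to 5647617, plus strand), which marks interneurons that inhibit other interneurons, had 8.68 to 19.4 CPM in control (median 12.9) and 8.41 to 22.5 in deltamethrin (median 12.7). Its log2 fold change was -0.03 ± 0.12 (adjusted p = 0.962 by edgeR, 95% interval -0.27 to 0.22), 0.02 without scaling factors, and between 0.0012 and 0.03 without control replicate 1, 6 or 11 or deltamethrin replicate 2.

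**Figure D2:**
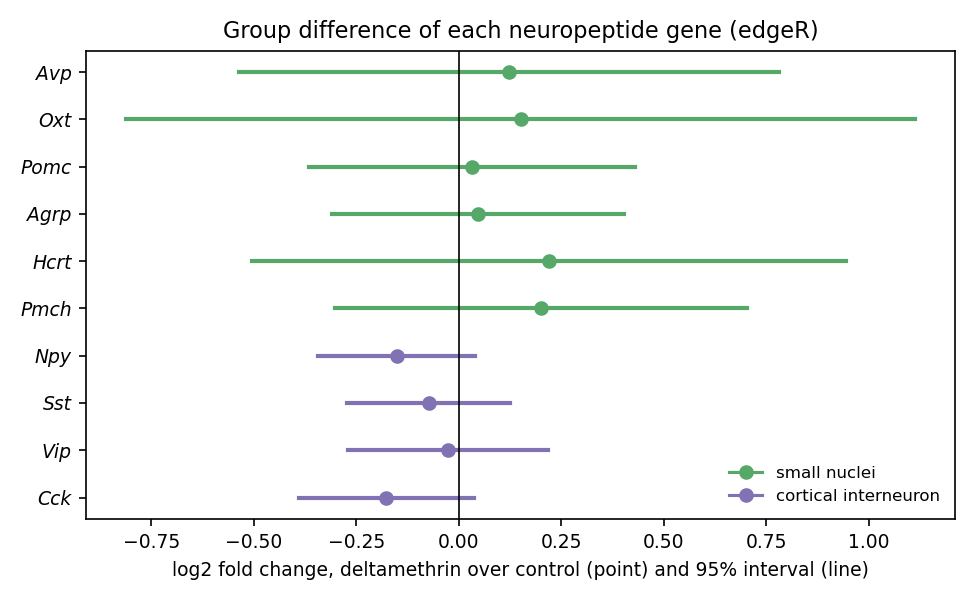
Log2 fold change of deltamethrin over control (horizontal axis) for each gene, with its 95% interval from edgeR. All 10 intervals include 0, and those of Oxt, Hcrt and Avp are the widest.

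The hypothalamus markers were set beside these values. Of the 4 hypothalamus markers that passed the count filter, 4 had a positive log2 fold change (median 0.41) and 0 passed after adjustment. Of all 19529 genes, 9864 had a positive one. At an unadjusted p of 0.05, 2 of 4 were called, beside 4.37% of all genes. Irs4 had 1.78 ± 1.12 CPM in control and 2.76 ± 1.30 in deltamethrin (log2 fold change 0.60 ± 0.27, unadjusted p = 0.0303, adjusted p = 0.813 by edgeR), and Asb4 had 0.555 ± 0.212 and 0.794 ± 0.379 CPM (0.51 ± 0.23, unadjusted p = 0.0287, adjusted p = 0.813 by edgeR). With the mean of these 4 markers as a covariate, the log2 fold changes of Avp, Oxt, Hcrt and Pmch turned negative, to -0.09, -0.34, -0.27 and -0.10, and those of Sst and Vip turned positive, to 0.0078 and 0.09. Those of Npy and Cck went from -0.15 to -0.0079 and from -0.18 to -0.03, and those of Agrp and Pomc from 0.05 to 0.14 and from 0.03 to 0.09. Under that covariate 0 of the 10 genes passed.

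Libraries of the same group lay far apart in most of the hypothalamic genes. The biological coefficient of variation, edgeR's estimate of the spread between libraries with counting error removed, was 94.8% for Oxt, 67.2% for Hcrt, 61.1% for Avp, 46.0% for Pmch and 35.8% for Pomc. At these abundances the trend over all genes was 29.5, 26.5, 28.6, 22.4 and 23.3%. Only 4 of 19529 genes had a higher value than Oxt, 52 a higher one than Hcrt and 97 a higher one than Avp. Agrp, whose count is uncertain because its exons overlap other genes, was the exception among the 6, with 26.3% against a trend of 31.2%. Npy (18%), Sst (18.9%) and Cck (20.3%) lay close to their trend of 16.8, 18.1 and 19.1%, and Vip (22.8%) lay above its trend of 17.4%. High values were not particular to the peptides. The median was 53.5% for the 6 hypothalamic genes and 43.3% for the hypothalamus markers tested. It was 38.1% for cerebellum, 34.9% for choroid plexus, 23.3% for striatum and 18.7% for cortex markers, beside 18.3% for all genes tested.

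Counting error alone was smaller than these spreads. At the mean count of each gene, counting alone gives a coefficient of variation of 17.1% for Oxt, 15.7% for Avp and 13.1% for Hcrt, while the observed values over 31 libraries were 90.2, 70.4 and 82.2%. For Agrp, counting gives 20.2% of an observed 30.3%. For Cck the corresponding values were 1.46 and 20.6%. From the lowest to the highest library, CPM differed 42.9-fold for Avp, whose lowest library held 1 count, and 28.9-fold for Hcrt. Without that control library the range of Avp was 17.9-fold, and without deltamethrin replicate 2 that of Hcrt was 11.5-fold. The range was 2.08-fold for Sst and 2.36-fold for Npy.

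**Figure D3:**
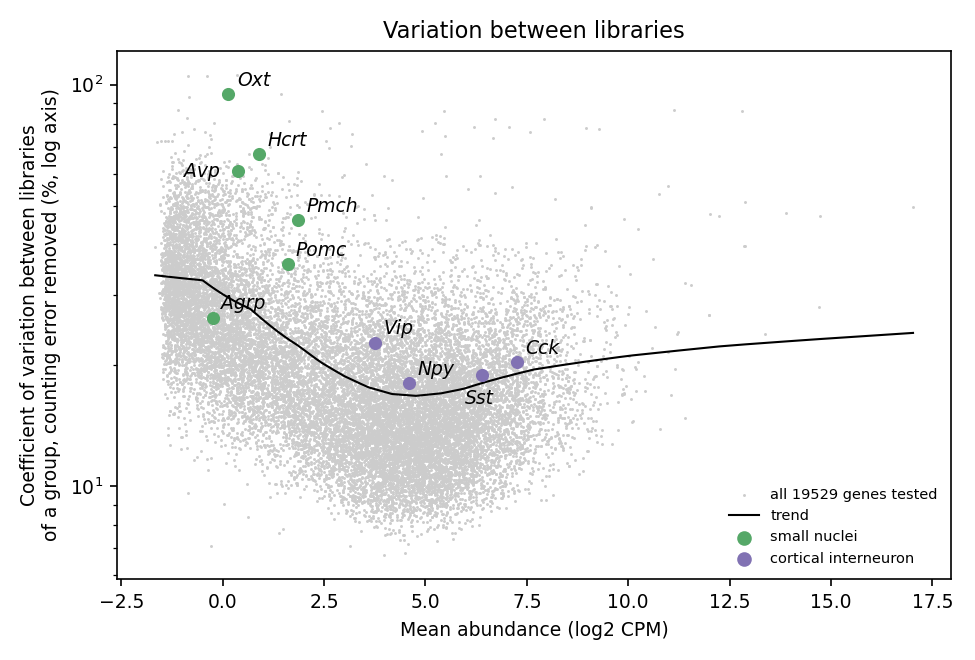
Biological coefficient of variation in percent (vertical log axis) against mean abundance in log2 CPM (horizontal axis) for all genes tested (grey), with edgeR's trend as a line. Oxt, Hcrt, Avp, Pmch, Pomc and Vip lie above the line, Agrp lies below it, and Npy, Sst and Cck lie near it.

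The spread was compared between the groups as the mean absolute deviation of log2 CPM from the group median. Avp had 1.08 in control and 0.534 in deltamethrin, a difference of -0.54 (two-sided permutation p = 0.00912, adjusted p = 0.0912 over the 10 genes). It did not pass after adjustment. Of the 31 fits without 1 library 3 passed, those without control replicate 5 (0.0205), control replicate 3 (0.0452) and deltamethrin replicate 15 (0.0467), and the adjusted permutation p reached 0.212 in the others. Oxt had 1.59 in control and 1.06 in deltamethrin (permutation p = 0.0770, adjusted 0.253). Sst was the other way round, with 0.140 and 0.265 (permutation p = 0.0526, adjusted 0.253). The remaining 7 genes had unadjusted permutation p-values of 0.101 or more.

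Of the 5 libraries with the least Avp, 4 were also low in Oxt and Hcrt. Control replicate 1 had 0.279 CPM of Avp, 0 counts of Oxt and 0.279 CPM of Hcrt. Control replicate 7 had 0.223 CPM of Avp, 0.0446 of Oxt and 0.357 of Hcrt, and control replicate 11 had 0.315, 0.0450 and 0.495. Control replicate 2 had 0.0929, 0.186 and 0.557 CPM. These 4 libraries had mitochondrial rRNA shares of 18.2, 27.4, 22.4 and 40.2%, above the control median of 12.9%, and their mean log2 CPM over the 4 hypothalamus markers was -1.16, -1.16, -1.15 and -0.68, below the control median of -0.31. The fifth, control replicate 12, had 0.499 CPM of Avp and 0.0831 of Oxt but 1.89 CPM of Hcrt and 5.63 of Pmch, with a mitochondrial rRNA share of 11.8% and a marker mean of -0.07. Pomc was not low in the other 4 as a group, at 2.40 to 5.67 CPM beside a control median of 2.56. Other libraries came near these 4 in 1 measure without such low levels. Control replicate 10 had a marker mean of -1.07 but 1.37 CPM of Avp and 2.30 of Hcrt, with 0.360 of Oxt. Deltamethrin replicate 8 had a mitochondrial rRNA share of 26.3%, with 0.683 CPM of Avp, 0.239 of Oxt and 1.26 of Hcrt. Whether library composition has a part in the low peptide levels was not tested.

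Across the 31 libraries, 9 of the 45 pairs of members were correlated after adjustment over the 45 (permutation tests of Pearson's r), all 9 positively. Of the 15 pairs among hypothalamic genes 4 passed, of the 6 pairs among cortical genes 4 passed, and of the 24 pairs across the sets 1 passed. Spearman's rho passed for these 9 and, in addition, for Pomc with Npy and Pomc with Sst (adjusted permutation p = 0.0217 and 0.0486). Within control alone, Avp with Oxt, Npy with Cck and Vip with Cck passed. Within deltamethrin alone, Avp with Oxt and each pair among Npy, Sst and Cck passed. A passing pair was not always a close one among the 19528 other genes ranked by r. Hcrt ranked 1092 for Avp and 1014 for Oxt, Cck 3197 for Pomc, and Vip 3480 for Cck, with Cck 204 for Vip. Avp ranked 1 for Oxt and Hcrt 1 for Pmch. The share of all gene pairs that would pass was not computed.

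Among the hypothalamic genes, Avp varied with its chromosomal neighbour Oxt (r = 0.795 and rho = 0.804, with a permutation p of 1e-05 for both, which is the lowest possible with these resamples, adjusted 0.00015). The value was 0.807 without the 2 libraries farthest from the median, 0.794 within control and 0.781 within deltamethrin. For each pair, the 2 farthest libraries were chosen by the level of the gene named first. The lateral hypothalamic pair Hcrt and Pmch gave r = 0.655 (rho = 0.566, permutation p = 6e-05 and 0.00112, adjusted 0.00054 and 0.0101), 0.633 when the 2 farthest libraries were left out, 0.728 in control and 0.604 in deltamethrin. Avp with Hcrt (r = 0.546, rho = 0.497, permutation p = 0.00156 and 0.00459, adjusted 0.0117 and 0.0256) and Oxt with Hcrt (r = 0.516, rho = 0.447, permutation p = 0.00296 and 0.0119, adjusted 0.0166 and 0.0486) passed as well. Neither passed without the 2 farthest libraries, where r was 0.457 and 0.362 (adjusted permutation p = 0.0650 and 0.161). Within control these were 0.689 and 0.678 and within deltamethrin 0.404 and 0.344.

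Among the cortical genes, Npy with Cck gave r = 0.872 (rho = 0.822, a permutation p of 1e-05 for both, adjusted 0.00015), 0.829 when the 2 farthest libraries were left out, 0.814 in control and 0.878 in deltamethrin. Npy with Sst gave r = 0.781 (rho = 0.711, permutation p = 1e-05 and 5e-05, adjusted 0.00015 and 0.000562) and 0.724 without the 2 farthest libraries, with 0.428 in control and 0.883 in deltamethrin. Sst with Cck gave r = 0.745 (rho = 0.762, permutation p = 2e-05 and 1e-05, adjusted 0.000225 and 0.00015), 0.766 without the 2 farthest, 0.569 in control and 0.779 in deltamethrin. Vip with Cck (r = 0.516, rho = 0.494, permutation p = 0.00295 and 0.00513, adjusted 0.0166 and 0.0256) was 0.345 without the 2 farthest libraries (adjusted permutation p = 0.161), 0.788 in control and 0.455 in deltamethrin. The pair across the sets was Pomc with Cck (r = 0.481, rho = 0.542, permutation p = 0.00606 and 0.00206, adjusted 0.0303 and 0.0155), with 0.641 without the 2 farthest libraries, 0.357 in control and 0.526 in deltamethrin, and it did not pass without scaling factors (r = 0.333, adjusted permutation p = 0.204).

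**Figure D4:**
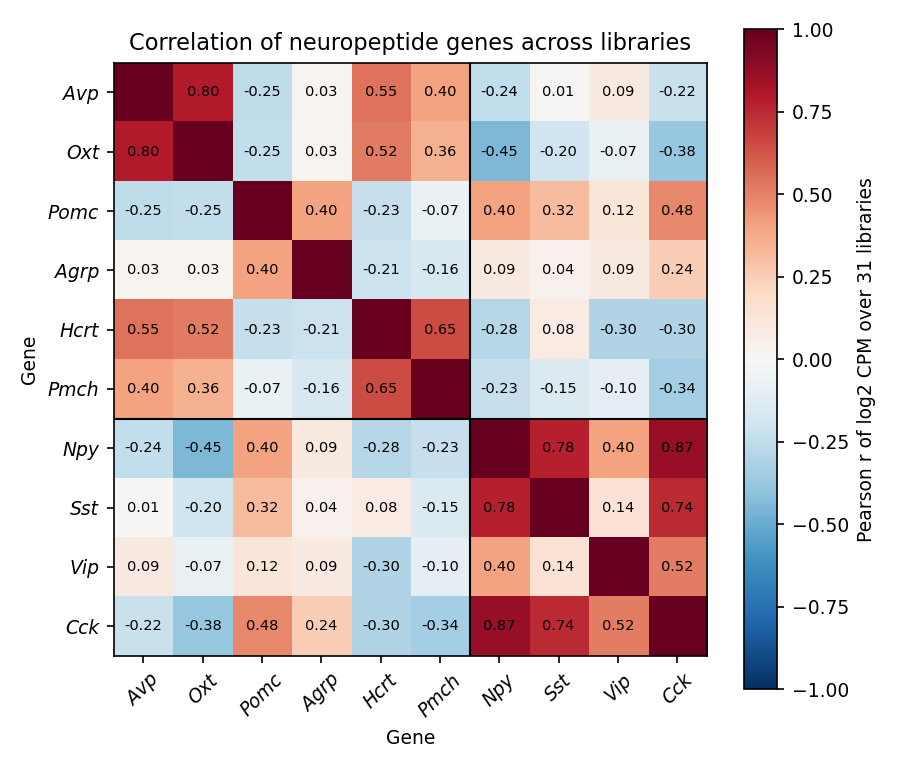
Pearson r of log2 CPM over 31 libraries for each pair of genes, from -1 (blue) to 1 (red), with black lines between the 6 hypothalamic and 4 cortical genes. The highest values are Npy with Cck (0.87), Avp with Oxt (0.80) and Npy with Sst (0.78).

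The members were also set beside 4 library measures (the share of mitochondrial rRNA and the mean log2 CPM of the hypothalamus, cortex and choroid plexus markers), 40 correlations in all, of which 15 passed after adjustment over the 40. With the mean of the hypothalamus markers, Oxt (r = 0.668, rho = 0.637, permutation p = 6e-05 and 0.00013, adjusted 0.0006 and 0.00104) and Hcrt (r = 0.585, rho = 0.552, permutation p = 0.00056 and 0.00175, adjusted 0.00373 and 0.00925) rose. Leaving out the 2 farthest, here chosen by the library measure, gave 0.564 and 0.469, control alone 0.740 and 0.698, and deltamethrin alone 0.534 and 0.510. Neither gene passed within control (adjusted permutation p = 0.0578 and 0.0582) or within deltamethrin (0.131 and 0.133). Avp (r = 0.507) and Pmch (r = 0.503) passed too, but not without the 2 farthest libraries (0.377 and 0.438). Pomc and Agrp went the other way (r = -0.264 and -0.261), and neither passed by r. By rho Pomc passed (-0.439, adjusted permutation p = 0.0401) and Agrp did not (-0.229). Npy (r = -0.720, rho = -0.741) and Cck (r = -0.731, rho = -0.671) fell with the same mean (permutation p of r 1e-05 for each, adjusted 0.0002), and this did not hold without scaling factors (r = -0.370 and -0.418, adjusted permutation p = 0.0989 and 0.0627). Sst passed narrowly (r = -0.420, adjusted permutation p = 0.0498), but neither by rho (-0.412, adjusted 0.0545) nor without scaling factors (r = -0.0146).

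The log2 share of mitochondrial rRNA went with less Hcrt (r = -0.562) and less Oxt (r = -0.538) and with more Pomc (r = 0.667), adjusted permutation p = 0.00555, 0.00711 and 0.0006. The corresponding rho was -0.554, -0.548 and 0.713, and r without the 2 farthest libraries was -0.481, -0.465 and 0.636. Within control the values were -0.697, -0.676 and 0.646, and within deltamethrin -0.434, -0.340 and 0.739. After adjustment none of these passed within control, and only Pomc did within deltamethrin (adjusted permutation p = 0.0114). Without scaling factors r was -0.628, -0.576 and 0.48 (adjusted permutation p = 0.00256, 0.00335 and 0.0254), so that of Pomc was lower. Avp had r = -0.564 (rho = -0.449, adjusted permutation p = 0.00555 and 0.0388), which did not hold without the 2 farthest libraries (-0.322, adjusted permutation p = 0.157), with -0.771 in control and -0.214 in deltamethrin. Npy (r = 0.590) and Cck (r = 0.520) rose with this share under the scaling used, but not without scaling factors (r = 0.138 and 0.120, adjusted permutation p = 0.704 and 0.765). With the cortex markers, Pomc (r = -0.463, rho = -0.464) and Vip (r = 0.443, rho = 0.426) passed (adjusted permutation p of r 0.0262 and 0.0365), but neither did without the 2 farthest libraries (-0.336 and 0.428, adjusted permutation p = 0.142 and 0.0632). The other cortical genes Npy, Sst and Cck did not pass with the cortex markers (r = 0.0778, 0.189 and 0.181). Of these, only Sst passed without scaling factors (r = 0.502, adjusted permutation p = 0.0324). With the choroid plexus markers 0 of the 10 passed.

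**Figure D5:**
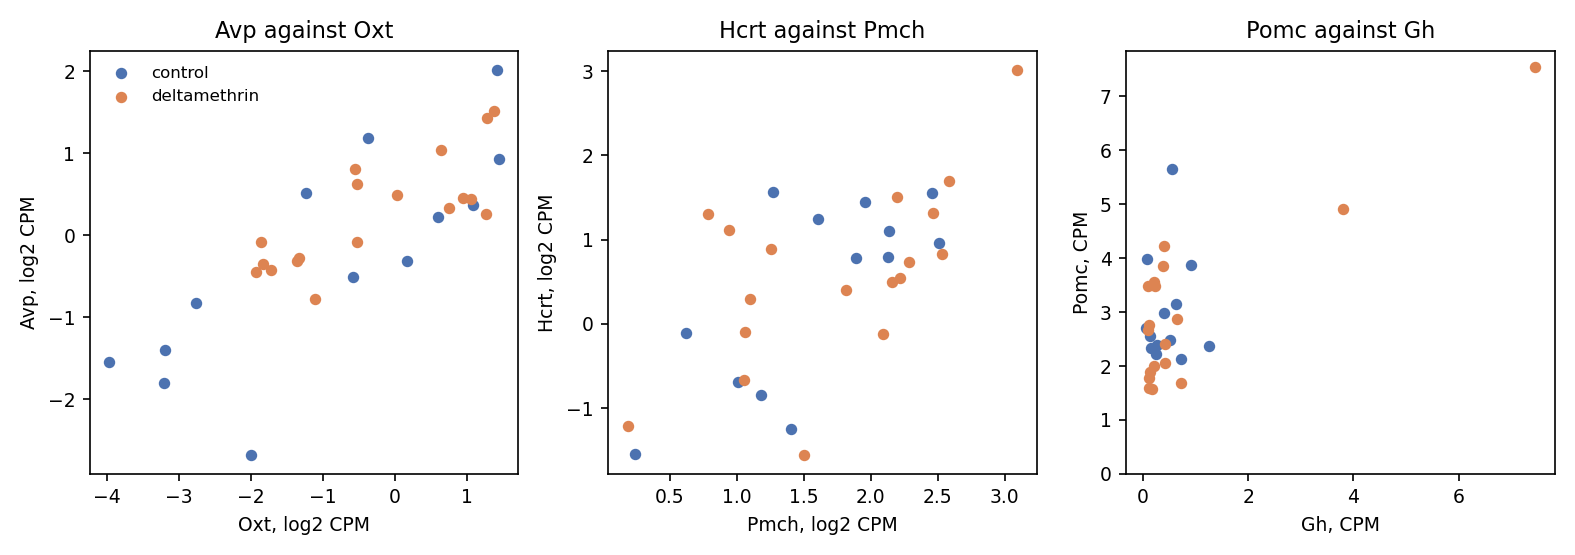
Avp against Oxt and Hcrt against Pmch in log2 CPM, and Pomc against Gh in CPM, each point a library. Avp and Oxt rise together in both groups, deltamethrin replicate 2 is highest for both Hcrt and Pmch, and deltamethrin replicate 12 is highest for both Pomc (7.55 CPM) and Gh (7.45 CPM).

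The difference of 2 peptides within a library, in log2 CPM, was compared between the groups for 6 pairs, of which 0 passed (two-sided permutation tests, adjusted over the 6). Avp minus Oxt had a mean ± SD of 0.68 ± 1.17 over 13 control and 0.56 ± 0.83 over 18 deltamethrin libraries (permutation p = 0.743, adjusted 0.891), and Avp was the higher one in 22 of 31 libraries. The arcuate pair Agrp minus Pomc was -1.87 ± 0.48 and -1.77 ± 0.60 (permutation p = 0.637, adjusted 0.891). Hcrt minus Pmch was -1.18 ± 0.78 and -1.16 ± 0.87 (permutation p = 0.928). Sst minus Npy was the least variable, with 1.75 ± 0.22 and 1.82 ± 0.16 (permutation p = 0.311, adjusted 0.891), and Sst was above Npy in 31 of 31 libraries. Agrp minus Npy and Sst minus Vip had permutation p-values of 0.303 and 0.666.

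For each member the 3 genes with the most similar pattern were taken among 19528 others, by Pearson r of log2 CPM over 31 libraries. The nearest gene to Oxt was Avp (r = 0.795), followed by Gm28043 (0.730) and Mypopos (0.720), and the nearest to Pmch was Hcrt (0.655), ahead of Inpp5f (0.607) and Gabre (0.598). Avp was nearest to Gm17275 (0.804), Rims3 (0.801) and Mypopos (0.799), with Oxt at rank 5. Mypopos was also first for Hcrt (0.779), ahead of Hs3st3b1 (0.778) and Zhx2 (0.777), with Pmch at rank 122. Pomc was nearest to Rdm1 (0.757), Nnat (0.752) and Cdc123 (0.751). Agrp was nearest to 5330438D12Rik (0.689), Alms1-ps2 (0.683) and A230107N01Rik (0.670).

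Of the cortical peptides, Cck was nearest to Rprml (0.922), Cby1 (0.916) and Chchd6 (0.916), with Npy at rank 34 and Sst at rank 825. Npy was nearest to Dctn3 (0.904), Gde1 (0.902) and Cops8 (0.893), with Cck at rank 8 and Sst at rank 211. Sst was nearest to Uchl1 (0.886), the abundant neuronal ubiquitin hydrolase, and to Copz1 (0.884) and Psmb2 (0.878). For Sst, Npy was at rank 126 and Cck at rank 240. Vip was nearest to Pparg (0.813), Camk2n1 (0.785) and A830009L08Rik (0.772), with Cck at rank 204. These genes were picked from all tested genes as the most similar, so their r values carry no test.

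Other peptide genes gave no call. Of 26 listed, 14 passed the count filter, 9 with a positive and 5 with a negative log2 fold change (median 0.08), and 0 had an unadjusted p-value under 0.05 by edgeR. The smallest p-values, chosen after they were seen, were those of Grp, gastrin-releasing peptide (7.30 ± 1.85 CPM in control and 6.04 ± 1.89 in deltamethrin, unadjusted p = 0.0612), Nmb, neuromedin B (1.54 ± 0.425 and 1.26 ± 0.323 CPM, unadjusted p = 0.0696) and Nts, neurotensin (4.02 ± 0.927 and 4.70 ± 1.38 CPM, unadjusted p = 0.0855). Each had an adjusted p of 0.813 by edgeR. Gal, a galanin precursor made in several hypothalamic nuclei, had a biological coefficient of variation of 45.1%. Trh and Crh, releasing hormones of the paraventricular nucleus, had 29.9 and 18%. The trend was 28.8% for Gal, 21.1% for Trh and 26.6% for Crh, so Crh lay below its trend.

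Of the 21 receptor genes of these peptides, 19 passed the filter, 9 with a positive and 10 with a negative log2 fold change (median -0.03). Sstr4, a somatostatin receptor, was the 1 of 19 genes with an unadjusted p-value under 0.05, a share close to the 4.37% of all genes, at 13 ± 1.41 CPM in control and 11.6 ± 1.85 in deltamethrin (log2 fold change -0.16 ± 0.07, unadjusted p = 0.0364, adjusted p = 0.813 by edgeR). The oxytocin receptor Oxtr, chosen after its value was seen, had 4.77 ± 1.09 and 5.59 ± 1.23 CPM (unadjusted p = 0.0575). Of the 12 genes that process peptides or form their granules, 12 were tested and 0 had an unadjusted p-value under 0.05. Cpe, carboxypeptidase E, had 942 ± 177 and 1016 ± 147 CPM, and Pcsk2, a prohormone convertase, had 186 ± 42.6 and 184 ± 37.4 CPM.

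Markers of other cell types were measured in the same libraries, and 0 passed after adjustment. At an unadjusted p-value under 0.05, 4.37% of all genes were called (2.37% lower). Of all 19529 genes, 9864 had a positive and 9665 a negative log2 fold change. The 9 interneuron markers were 3 higher and 6 lower, with Gad2 at 113 ± 19.2 CPM in control and 132 ± 33.8 in deltamethrin (unadjusted p = 0.0440, adjusted p = 0.813 by edgeR). The 7 cortex markers were 2 higher and 5 lower with 0 at an unadjusted p-value under 0.05. All 9 choroid plexus markers had a negative log2 fold change (median -0.25), 3 of them at an unadjusted p-value under 0.05, namely Folr1 (5.02 ± 2.52 and 3.50 ± 1.12 CPM), Kcne2 (3.55 ± 2.79 and 2.35 ± 0.736 CPM) and the thyroid hormone carrier Ttr (592 ± 308 and 431 ± 162 CPM). The same sign held for 7 of 7 striatum markers (median -0.16, with Gpr6 under 0.05 at 13.4 ± 3.61 and 10.9 ± 2.69 CPM) and 5 of 5 blood markers (median -0.29, 0 under 0.05), while 6 of 6 cerebellum markers had a positive one (median 0.28, 0 under 0.05). Markers of a list can vary together, so their signs are not separate observations. The part of these markers in the peptide values was not tested.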

How the data were processed

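The authors deposited raw counts per Ensembl gene for 31 libraries, whole numbers with no normalization. Trimmomatic, HISAT2, SAMtools, MultiQC and GRCm38 are named in the submitters' processing notes. Neither the counting tool nor its annotation, nor whether strand was used, is given in the sources used here. Columns were matched to samples by title and groups taken from the agent label. GENCODE M21 (GRCm38) gave symbols, coordinates and exon lengths for 48435 of the IDs (99.3%), and promoter windows came from RefSeq (GRCm38.p6).

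Genes were filtered with filterByExpr in edgeR 4.0.16 (R 4.3.3; minimum count 10, minimum total 15), scaled by TMM and tested with the quasi-likelihood test (robust, no covariates) over all 31 libraries, with Benjamini-Hochberg adjustment over 19529 genes. CPM values use TMM-scaled library sizes and log2 CPM a prior count of 2. Standard errors are the fold change over the square root of F. Permutation tests drew 100000 resamples. The code was tested on simulated data. Alternatives were RLE, upper quartile and no factors, no count filter, DESeq2 1.42.0, limma 3.58.1 voom, 2 covariates, a prior count of 0.5 and leaving out each library. Leaving out both libraries with the highest Gh and Prl was added after seeing the data.

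The members and gene lists were chosen with earlier results of these data known. Named genes were the members, the 3 genes nearest to each, and up to 3 genes of each other list with the smallest unadjusted p-value under 0.05, and any other gene was chosen after its values were seen (Gh, Prl, Cga and Tbx19 beside Pomc, and Gal, Trh, Crh, Cpe and Pcsk2 from their lists).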

Additional observations from a re-analysis of the deposited data

How the results depend on the processing

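After adjustment 0 genes passed with the settings of the report, in the 9 alternatives and in the 31 fits that each left out 1 library, where the smallest adjusted p was 0.0521 (edgeR). Unadjusted, 853 genes passed, against 1948 with no count filter, 1360 with DESeq2, 1796 with the mitochondrial rRNA covariate and 526 to 1389 with 1 library left out. Of 90 member fold changes under alternatives 80 kept their direction and 0 passed. The 10 that turned, on the log2 scale, were Avp (-0.092), Oxt (-0.345), Hcrt (-0.27), Pmch (-0.103), Sst (0.0078) and Vip (0.094) with the hypothalamus marker covariate, Pomc (-0.0494) with limma voom, Vip (0.017) without scaling factors, and Pomc (-0.171) and Vip (0.00758) without both libraries of highest Gh and Prl. The cause was not tested. With 1 library left out, Pomc ran from -0.097 to 0.119, Agrp from -0.013 to 0.135, Hcrt from -0.074 to 0.331 and Vip from -0.085 to 0.026. The ratio differences ran from -0.232 to 0.030 for Avp minus Oxt and from -0.095 to 0.151 for Hcrt minus Pmch. Differences in spread ran from -0.633 to -0.437 for Avp, -0.086 to 0.051 for Agrp, -0.189 to 0.030 for Hcrt and -0.035 to 0.026 for Vip.

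Of the 45 member pairs, 9 were correlated, against 3 within control and 4 within deltamethrin. Of the 40 pairs with library measures it was 15, against 2 within control and 5 within deltamethrin, where fewer libraries enter. Of 96 values of the passing correlations under alternatives, 47 still passed, 49 did not and 0 changed sign. Counting error was largest for Agrp, Oxt and Avp. No paired analysis was possible because the labels give no numbers that groups share.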
